A study of Mus musculus with 42 samples.

Results

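The response to ionizing radiation of 3 Mre11A/A mouse pre-B cell lines was set against that of 3 wild-type (WT) lines. The comparison used 12 of the 42 arrays of the series, a pair for each of 6 of its 21 lines. The lines were chosen by the genotype in their labels: all arrays labelled WT or Mre11A/A were used. For each line the change was the irradiated minus the untreated array of the same replicate number, on the scale log2(signal + 16), and the difference between the genotypes was the mean change of the Mre11A/A lines minus that of the WT lines. A negative difference therefore means that a gene rose less, or fell more, in Mre11A/A lines.

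All 6 lines were pre-B cells from bone marrow of mice aged 3 to 5 weeks, transformed with the pMSCV-v-abl retrovirus, and all carried the Em-Bcl2 transgene. The v-abl kinase keeps such cells dividing, and Bcl2 blocks apoptosis. The WT lines, numbered 1, 3 and 4 in the labels, had no mutated gene. The Mre11A/A lines, numbered 1, 2 and 3, came from mice with a hypomorphic Mre11 allele, one that lowers the function of the protein without removing it. RNA was taken 2 h after 1 Gy of gamma rays or a mock treatment, which gave 3 arrays for each of 4 groups. Per the labels, arrays within a group are biological replicates; nothing states that each line came from a mouse of its own, so p-values measure the spread between these lines only. The study asked how the radiation response of each mutant genotype compared with that of WT.

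Mre11 is the nuclease of a complex with Rad50 and Nbs1 that binds the ends of double-strand breaks and activates the kinase Atm there. Active Atm stabilises the transcription factor p53, which raises genes of cell-cycle arrest, repair and death. Atm also signals through Nemo to release NF-kB, which raises genes of survival, of its own feedback inhibitors and of B-cell maturation. In pre-B cells these pathways are known for their part in V(D)J recombination, where the Rag1 and Rag2 proteins cut the antigen-receptor genes.

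NF-kB binds kB elements in promoters and enhancers. A script searched the 250 bases before each RefSeq start site (GRCm38.p6) for the standard kB consensus of 10 bases on both strands. A match was found in 3.9% of 32851 promoters and in 5.46% of the 9991 measured genes with an entry. Of the NF-kB list described below, 13 of 25 measured members with an entry (52%) held a match, against 2 of 31 (6.45%) of the p53 list. A match describes the letters only, and a gene without one in this window may be bound elsewhere. The promoters of 3 list members and of Spib, all with a smaller mean change in Mre11A/A than in WT lines, are shown with the match in capitals, 5′ to 3′ on the strand of the gene. They lie at chr12:55492648-55492897, minus strand; chr17:45555450-45555699, plus strand; chr17:35194257-35194506, plus strand; and chr7:44532072-44532321, minus strand. The Spib match reads the same on both strands.
Nfkbia: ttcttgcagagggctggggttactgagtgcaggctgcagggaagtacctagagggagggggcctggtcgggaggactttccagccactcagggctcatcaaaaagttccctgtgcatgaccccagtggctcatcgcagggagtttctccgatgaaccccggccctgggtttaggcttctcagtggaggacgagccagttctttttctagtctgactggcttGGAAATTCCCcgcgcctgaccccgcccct
Nfkbie: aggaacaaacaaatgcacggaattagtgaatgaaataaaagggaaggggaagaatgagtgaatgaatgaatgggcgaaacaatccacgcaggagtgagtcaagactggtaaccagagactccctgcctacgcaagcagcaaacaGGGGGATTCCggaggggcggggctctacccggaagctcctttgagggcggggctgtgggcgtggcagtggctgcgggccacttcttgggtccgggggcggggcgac
Ltb: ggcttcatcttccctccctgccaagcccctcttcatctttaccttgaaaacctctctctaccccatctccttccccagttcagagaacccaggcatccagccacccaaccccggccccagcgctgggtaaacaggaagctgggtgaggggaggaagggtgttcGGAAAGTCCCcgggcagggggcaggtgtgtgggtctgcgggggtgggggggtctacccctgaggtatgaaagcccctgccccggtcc
Spib: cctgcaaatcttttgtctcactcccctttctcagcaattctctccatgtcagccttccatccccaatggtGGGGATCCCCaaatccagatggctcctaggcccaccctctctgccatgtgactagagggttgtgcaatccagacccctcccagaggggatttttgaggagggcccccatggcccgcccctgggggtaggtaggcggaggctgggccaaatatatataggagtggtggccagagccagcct
Nfkbia and Nfkbie encode inhibitors that hold NF-kB in the cytoplasm, Ltb a membrane-bound cytokine, and Spib a B-cell transcription factor. The windows of Mob3a, Birc3, Bcl3 and Swap70 held no match, and Relb, Cd40 and Cd69 were not among the entries found.

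Over 12363 genes tested, 247 rose (2%) and 218 fell (1.76%) in WT lines at an adjusted p under 0.05 (limma with Benjamini-Hochberg adjustment). In Mre11A/A lines 4 rose (0.0324%), Cdkn1a, Slc19a2, Kifc5b and the noncoding RNA Xist, and 0 fell (0%). At an unadjusted p under 0.05 the Mre11A/A change stood out for 549 genes (4.44%), 320 of them higher (2.59%) and 229 lower (1.85%). The difference itself passed for 1 gene, Mob3a (0.00809%). It had an unadjusted p under 0.05 for 1042 genes (8.43%), of which 520 (4.21%) were lower and 522 (4.22%) higher in Mre11A/A lines. The median standard error of the difference was 0.20, so that for a typical gene the 95% interval reached 0.41 to each side. For such a gene, a smaller difference would not reach even an unadjusted p of 0.05 with 3 lines per genotype. A call after the adjustment needed a larger one: Dtl, with a difference of 0.80, was not called. With the arrays taken as unpaired, 0 genes were called for the difference, 0 for Mre11A/A and 12 for WT lines. These counts rest on single lines: leaving out 1 of the 6 lines gave 0 to 3 calls for the difference, 0 to 16 for Mre11A/A and 114 to 412 for WT.

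The median signal was 103 on the irradiated array of WT line 4 and between 63.1 and 74.3 on the other 11 arrays, so values that turn on that line are also given without it. The Mre11a probe set with the higher signal checked the labels: it averaged 1497 ± 131 (SD, n = 6 arrays) in WT and 559 ± 101 (SD, n = 6 arrays) in Mre11A/A lines, with no overlap, while a dimmer one had 174 and 251. Of 9 pre-B markers 8 were measured, and all 8 lay above the array median on every array. Summed over the marker list, T-cell signals were 297 to 469 in untreated and 458 to 778 in irradiated WT lines, and 390 to 550 and 397 to 467 in Mre11A/A lines. Of these markers Cd3d was at most at 16.3. Zap70 reached the highest signals, with 109 to 550 in WT and 193 to 365 in Mre11A/A lines, and Cd8a had 45.4 to 161 and 63.2 to 101. Myeloid sums lay between 358 and 942 and erythroid sums between 88.7 and 289, and the stromal sum was nearly all Vim. Mre11A/A lines 2 and 3 had high Eif2s3y, a Y-linked gene, at 2466 to 3134, whereas line 1 and all WT lines had at most 16.7. The part of this sex difference between lines in the results was not tested.

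Mob3a, a member of the Mob family of kinase adaptors, was the gene whose response was called weaker. Its signal rose from 303 to 829.5, 371 to 992 and 428 to 825 in WT lines 1, 3 and 4. The Mre11A/A lines 1, 2 and 3 went from 529 to 532, 387 to 458 and 505 to 569. Every WT line rose to a level above all irradiated Mre11A/A arrays, although the untreated ranges overlapped. The WT change was 1.24 ± 0.13 (log2, SE from the pooled spread, n = 3 lines) and the Mre11A/A change 0.14 ± 0.13. The difference was -1.10 ± 0.18, with a 95% interval of -1.48 to -0.73 (limma adjusted p = 0.0403). The call was lost without any of 5 of the 6 lines (adjusted p 0.088 to 0.448) and kept without WT line 4 (0.00804). With all lines kept, it was also lost under 6 of 9 other ways of processing, with adjusted p-values of 0.0511 (pseudocount of 1), 0.0545 (WT and Mre11A/A lines only), 0.08 (all kept probe sets), 0.0823 (quantile normalization), 0.267 (no intensity trend) and 1 (unpaired arrays). In the other genotypes the Mob3a change was -0.27 in Atm-/-, 0.60 in Scid, 1.15 in 53bp1-/-, 1.33 in H2ax-/- and 1.38 in Mdc1-/- lines.

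**Figure D1:**
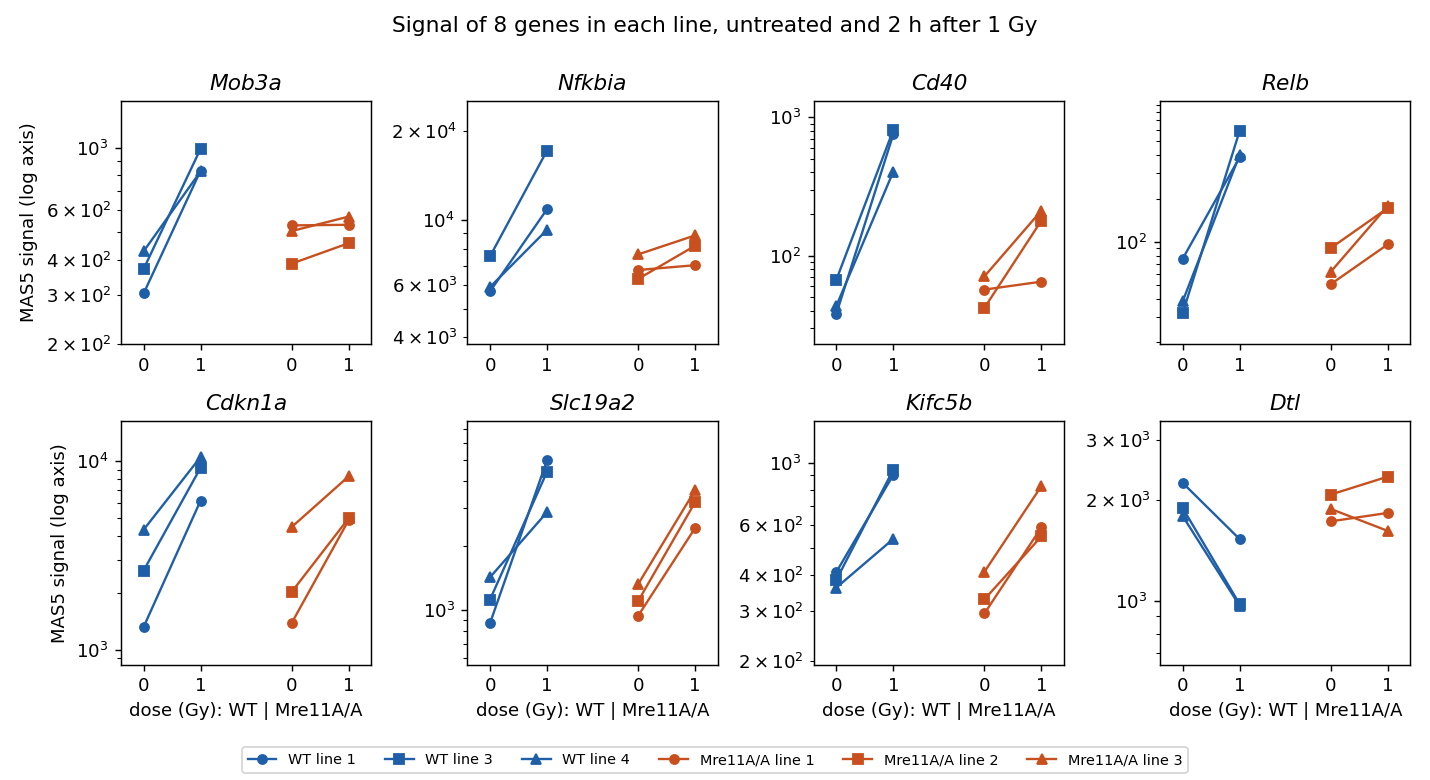
Each panel plots the MAS5 signal of a gene (log axis) at 0 and 1 Gy, 1 line per cell line, WT in blue on the left and Mre11A/A in orange on the right. Mob3a, Nfkbia, Cd40 and Relb climb more steeply in WT lines, Cdkn1a, Slc19a2 and Kifc5b climb in both genotypes, and Dtl drops in all WT lines and, by less, in Mre11A/A line 3.

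A gene picked for its change in WT lines tends to look smaller elsewhere. A radiation-response list was therefore taken from the mean change of the 12 lines of Scid, 53bp1-/-, H2ax-/- and Mdc1-/- cells. That mean uses no WT or Mre11A/A array. At an adjusted p under 0.05 (limma) 720 genes rose (5.82%) and 828 fell (6.7%) there. The spread behind this p came from the fit of all lines, WT and Mre11A/A included, and the probe sets were chosen over the whole series. Counts by unadjusted p or by lack of overlap, here and for the strong risers below, are therefore not independent of the listing. The median change of the 720 genes was 0.33 for WT and 0.12 for Mre11A/A lines, beside 0.01 and -0.02 over all genes. The difference was below 0 for 600 of the 720, against 53.9% of all genes, and the change was above 0 for 681 of them in WT (51.2% of all genes) and for 575 in Mre11A/A lines (44.2% of all genes). The 828 falling genes had medians of -0.22 and -0.05, and the mean difference was above 0 for 684 of them; in 262, all Mre11A/A lines lay above all WT lines, against 7.21% of all genes. Of the risers 143 had an unadjusted p under 0.05 for a lower difference, against 4.21% of all genes, and of the fallers 200 for a higher one, against 4.22%. When 1 line was left out, the median difference was -0.26 to -0.16 for risers and 0.14 to 0.18 for fallers.

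Among the 73 genes with a mean rise of at least 1 in the 4 other genotypes, the median change was 1.24 for WT and 0.66 for Mre11A/A lines. The 17 of them on the p53 list had medians of 1.33 and 0.87, the 12 on the NF-kB list 1.66 and 0.51, and the 40 on no list 1.13 and 0.56. Mean changes were above 0 in Mre11A/A lines for 70 of the 73, and 25 of the 73 had all Mre11A/A lines below all WT lines, against 6.9% of all genes. For 67 of the 73 the Mre11A/A mean change lay between 0 and the WT mean change. As a share of the median WT change, the median Mre11A/A change was 65.7% for the 17 p53 targets and 30.5% for the 12 NF-kB targets. The p53 share depended on WT line 4. Line medians of the 17 were 1.69, 1.60 and 0.70 in WT lines 1, 3 and 4. They were 0.82, 0.81 and 1.01 in Mre11A/A lines 1, 2 and 3, above WT line 4 and below WT lines 1 and 3. For the 12 NF-kB targets they were 1.45, 2.04 and 1.42 in WT and 0.09, 0.81 and 0.62 in Mre11A/A lines, with no overlap. Of the 35 genes with a mean fall of at least 0.5, the median was -0.55 for WT and -0.11 for Mre11A/A lines. Among the 10 largest fallers, Rag1, Rag2, Mettl7a2, Megf10, Plk1 and Alox5 had a clearly smaller mean fall, or none, in Mre11A/A lines. Sh2d5 (-0.17 in WT and -0.14 in Mre11A/A) and Calhm6 (-0.33 and -0.31) hardly differed. Pkd2l2 (-0.05 and -0.29) and Rem2 (0.55 and -0.68) were lower in Mre11A/A lines.

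**Figure D2:**
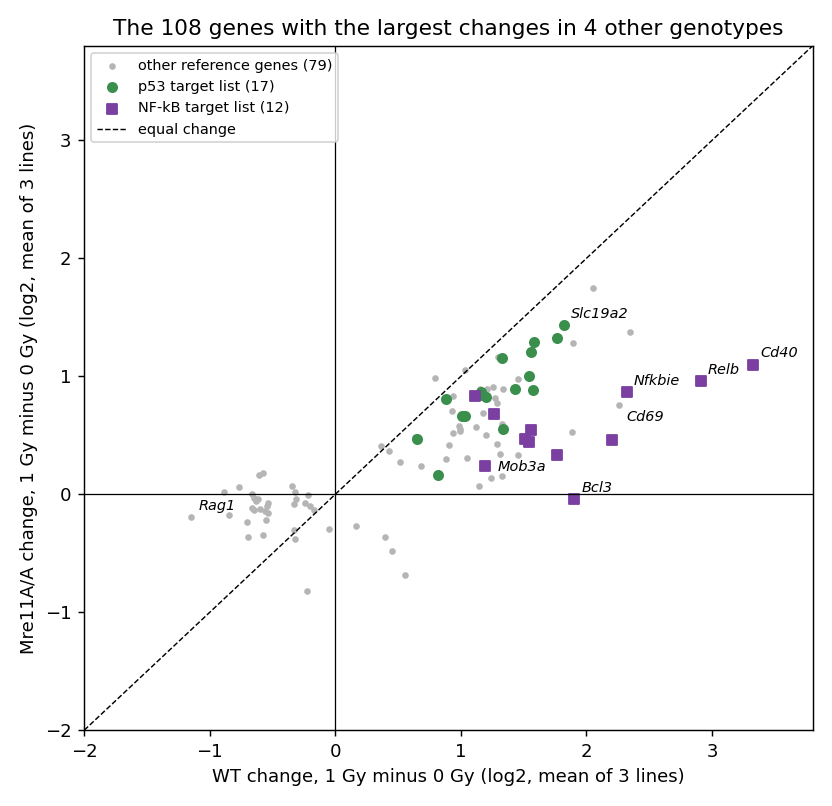
The mean change after 1 Gy in 3 WT lines (x axis, log2) is plotted against that in 3 Mre11A/A lines (y axis, log2) for 108 genes, the 73 that rose by 1 or more and the 35 that fell by 0.5 or more in the 4 other genotypes. Most points lie between the horizontal zero line and the dashed line of equal change. The median Mre11A/A change is 65.7% of the median WT change for the 17 p53 targets and 30.5% for the 12 NF-kB targets. The p53 share depends on WT line 4, whose median over the 17 was 0.70, against 1.69 and 1.60 in WT lines 1 and 3.

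NF-kB targets had a smaller median change in Mre11A/A than in WT lines. Of 33 measured members of a list of 38, 18 rose in WT lines (limma adjusted p under 0.05), against 2% of all genes. In Mre11A/A lines 0 passed and 9 had an unadjusted p under 0.05 for a rise, against 2.59% of all genes. The median change was 0.79 for WT and 0.13 for Mre11A/A lines. The median difference was -0.70, beside -0.02 over all genes. The difference was lower at an unadjusted p under 0.05 for 17 of 33, against 4.21% of all genes, and higher for 0; none passed the adjustment. In 17 members all Mre11A/A lines lay below all WT lines, against 6.9% of all genes. The median over the list was 0.70, 1.02 and 0.85 in WT lines 1, 3 and 4, and 0.09, 0.22 and 0.26 in Mre11A/A lines 1, 2 and 3, with no overlap. Leaving out 1 line gave a median difference of -0.78 to -0.48. Then 14 to 17 members were lower at an unadjusted p under 0.05, beside 3.32% to 5.69% of all genes.

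Nfkbia, a feedback inhibitor, had the smallest p of the list. Its signals went from 5727 to 10860, 7527 to 17150 and 5925 to 9255 in WT lines and from 6766 to 7024, 6308 to 8172 and 7640 to 8859 in Mre11A/A lines. All 6 lines were higher after radiation, and the smallest WT change exceeded the largest Mre11A/A one. The difference was -0.70 ± 0.14 with an interval of -0.99 to -0.41; it did not pass (limma adjusted p = 0.129), except without WT line 4 (0.0307). The other 4 Nfkbia probe sets had differences of -0.93 to -0.70. Nfkbie went from 470.3 to 2228, 524 to 4465 and 639.6 to 2119 in WT lines and from 382 to 579.9, 425 to 799 and 487 to 1079 in Mre11A/A lines. The 3 irradiated Mre11A/A arrays stayed below every irradiated WT array, and the Mre11A/A change was 37.2% of the WT change. Its difference was -1.46 ± 0.37 (limma adjusted p = 0.198). Bcl3, an atypical inhibitor that works with NF-kB in the nucleus, went from 8.702 to 48.9, 63.9 to 583 and 73.5 to 221 in WT and from 49.3 to 29.4, 79.03 to 65.4 and 45.4 to 79.1 in Mre11A/A lines. The irradiated signal was the higher one in all WT lines and, among Mre11A/A lines, in line 3 alone, from low levels. The difference was -1.94 ± 0.46, with an interval of -2.89 to -0.99 (limma adjusted p = 0.187).

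Relb, a subunit of NF-kB, had the largest mean rise in the 4 other genotypes. Its signals went from 76.5 to 388, 32.04 to 594 and 38.7 to 404 in WT lines and from 50.7 to 95.9, 90.5 to 172 and 61.9 to 178 in Mre11A/A lines. Each of the 6 lines was higher after radiation, and the groups overlapped in untreated but not in irradiated cells. The WT change was 2.91 ± 0.42, the Mre11A/A change 0.96 ± 0.42 and the difference -1.95 ± 0.59, with an interval of -3.18 to -0.72 (limma adjusted p = 0.305). Map3k8, a kinase of the MAPK cascade, changed by 1.11 in WT and 0.83 in Mre11A/A lines, and the interval of the difference ran -1.11 to 0.55.

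Cd40, the receptor through which T cells help B cells, went from 38.02 to 756, 66.9 to 812 and 43.3 to 405 in WT lines. In Mre11A/A lines its signals went from 56.7 to 64.7, 41.8 to 179 and 70.7 to 212. Untreated levels overlapped, and the highest irradiated Mre11A/A array was below the lowest irradiated WT array. The mean changes were 3.33 ± 0.40 and 1.10 ± 0.40, and the difference of -2.23 had an interval of -3.39 to -1.07 (limma adjusted p = 0.198). Ltb already differed in untreated cells. Its signals went from 853 to 1864, 193 to 806 and 1242 to 3406 in WT and from 130.2 to 139, 159.7 to 274 and 79.6 to 129 in Mre11A/A lines, so the Mre11A/A lines started below every WT array. The change was 1.51 for WT and 0.47 for Mre11A/A lines. Birc3, an inhibitor of cell death, went from 1342 to 2952, 1317 to 3949 and 1523 to 2807 in WT and from 1376 to 1462, 1139 to 1432 and 1449 to 1796 in Mre11A/A lines. The difference was -0.95 ± 0.21, whereas a second Birc3 probe set had 0.17. Ier3, an early survival gene, changed by 1.76 in WT and 0.33 in Mre11A/A lines at low signals.

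Targets of p53 had positive median changes in all 6 lines. Of 38 measured members of a list of 40, 21 rose in WT lines (limma adjusted p under 0.05), against 2% of all genes. In Mre11A/A lines 2 passed, Cdkn1a and Slc19a2, and 21 had an unadjusted p under 0.05 for a rise, against 2.59% of all genes. The median change was 0.75 for WT and 0.50 for Mre11A/A lines, and the median difference -0.25. The difference had an unadjusted p under 0.05 for 4 members that were lower and 1 that was higher, beside 4.21% and 4.22% of all genes; a single higher member of 38 is no more than that share. List medians were 1.01, 0.91 and 0.38 in WT lines 1, 3 and 4, and 0.41, 0.42 and 0.63 in Mre11A/A lines 1, 2 and 3. The groups overlapped through WT line 4, the line whose irradiated array had the high median signal. Without that line the median difference was -0.52, and 13 members were lower at an unadjusted p under 0.05, beside 5.1% of all genes. Without WT line 1 the values were -0.10 and 1, beside 5.69%, and without WT line 3 they were -0.12 and 2, beside 3.96%. Without Mre11A/A lines 1, 2 and 3 in turn, 2, 1 and 1 members were lower, beside 3.35%, 3.32% and 3.78%. Counts of 1 or 2 among 38 members are near or below those shares. The size of the p53 difference thus depended on which WT lines were used.

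Cdkn1a encodes p21, the inhibitor of cyclin-dependent kinases that halts the cycle. Its signals went from 1321 to 6176, 2631 to 9231 and 4331 to 10530 in WT lines and from 1385 to 4860, 2024 to 4978 and 4473 to 8304 in Mre11A/A lines. All 6 lines were higher after radiation, and the untreated levels overlapped. The Mre11A/A change was 1.33 ± 0.18 (limma adjusted p = 0.00185), 75.2% of the WT change of 1.76 ± 0.18. The interval of the difference, -0.96 to 0.09, included 0, and a second probe set had a difference of 0.23. Without WT lines 1, 3 and 4 in turn the difference was -0.21, -0.42 and -0.68. The Mre11A/A call was lost without Mre11A/A line 1 or 2 (adjusted p 0.179 and 0.0624) and kept without line 3 (0.00285).

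Slc19a2, a thiamine transporter, went from 871 to 4985, 1122 to 4411 and 1425 to 2861 in WT and from 942 to 2410, 1102 to 3180 and 1321 to 3618 in Mre11A/A lines. The 3 Mre11A/A changes were alike, 1.34 to 1.51. They lay below those of WT lines 1 and 3 (2.49 and 1.96) and above that of WT line 4 (1.00). With 1 line left out the difference ran from -0.79 to -0.05. Their change was 1.43 ± 0.24 (limma adjusted p = 0.0191) and the difference -0.39, with an interval of -1.09 to 0.32; the other probe sets had -0.33 and -0.14. Kifc5b, a gene for a kinesin motor that is on no list and is a near copy of Kifc1, went from 411 to 905, 386 to 944 and 362 to 537 in WT and from 293 to 589.7, 329 to 548 and 411 to 825 in Mre11A/A lines. After radiation all 6 lines were higher, and its probe set may not tell the copies apart. The Mre11A/A change was 0.89 ± 0.15 (limma adjusted p = 0.0191), 91.1% of WT, with an interval of the difference of -0.52 to 0.35. With 1 line left out the difference of Kifc5b ran from -0.30 to 0.06. The Mre11A/A calls of Slc19a2 and Kifc5b were lost without any 1 of the 3 Mre11A/A lines (adjusted p 0.17 to 0.394). With no intensity trend the calls of Cdkn1a, Kifc5b and Slc19a2 were lost as well (adjusted p 0.108, 0.134 and 0.392), as they were with unpaired arrays (adjusted p of 1 for each).

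The other p53 targets did not pass the adjustment in Mre11A/A lines. Sesn2, a stress-response protein that restrains mTOR signalling, changed by 1.58 in WT and 1.29 in Mre11A/A lines. Its second probe set had a larger difference, -0.94 (limma unadjusted p = 0.0261) against -0.29. Ddias, which protects from apoptosis after damage, changed by 1.56 and 1.20. For Fas, the death receptor, the changes were 1.54 and 1.00, from low signals. Mdm2, the ubiquitin ligase that limits p53, and Ccng1, a cyclin, were chosen after their values were seen. Mdm2 changed by 1.16 and 0.87 (interval of the difference -0.85 to 0.28), and Ccng1 by 0.88 and 0.81 (-0.53 to 0.39). On the probe sets that stood for these genes, the intervals leave room for a response equal to that of WT and for one that is clearly weaker. Plk2 varied too much between lines to be read, with changes of -1.36 to 1.71 in WT lines.

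A few p53 targets stood lower in Mre11A/A lines at an unadjusted p under 0.05. Pidd1, an adaptor of caspase-2 activation, went from 291 to 978, 446 to 886 and 368 to 956 in WT and from 460.4 to 602, 513 to 702 and 524 to 949 in Mre11A/A lines. The changes did not overlap, and the difference was -0.78 ± 0.23 (limma adjusted p = 0.284). Phlda3, an inhibitor of Akt, changed by 1.57 and 0.89, and Btg2, an antiproliferative gene, by 0.82 and 0.17. Sesn1 went the other way, with -0.51 in WT and 0.22 in Mre11A/A lines, but 2 of its 3 other probe sets had the opposite sign of difference. Among strong risers on no list, Inka2 changed by 2.05 and 1.75, Enc1 by 1.89 and 1.28, and the transcript 9230114K14Rik by 2.34 and 1.38.

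**Figure D3:**
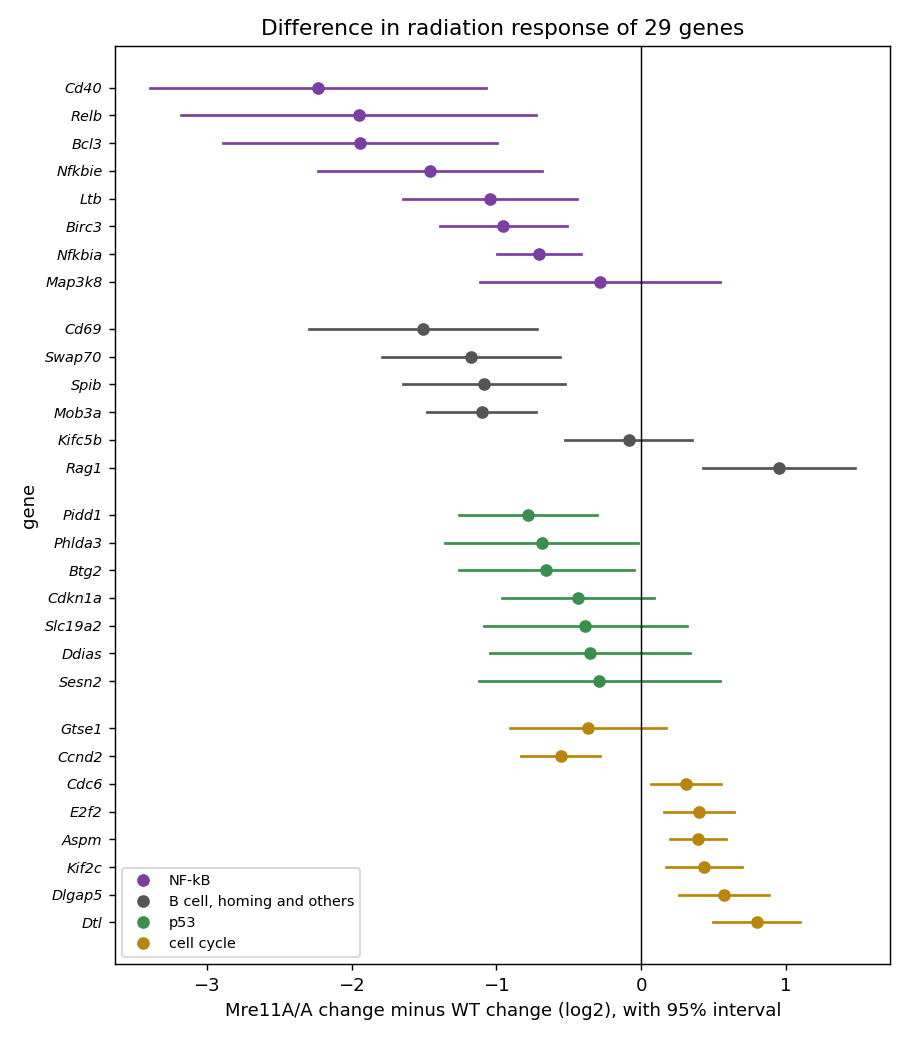
Points give the Mre11A/A minus WT change (log2) of 29 genes and bars its 95% interval from limma, coloured by gene group. The intervals of Cd40, Relb, Bcl3, Nfkbie, Ltb, Birc3 and Nfkbia lie below 0, as do those of the p53 targets Pidd1, Phlda3 and Btg2. Those of Cdkn1a, Slc19a2, Ddias, Sesn2, Kifc5b and Map3k8 include 0. Those of Cdc6, E2f2, Aspm, Kif2c, Dlgap5 and Dtl lie above 0. Of the genes shown, Mob3a alone passed the adjustment. Most were picked by the p of this difference or by the size of the Mre11A/A change, so their intervals do not describe whole lists.

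Among genes of B-cell maturation and lymphocyte traffic, several that rose or fell in WT lines had mean changes nearer to 0 in Mre11A/A lines. Genes singled out by their WT change tend to change less elsewhere. On the B-lineage and V(D)J list 28 of 30 were measured: 2 rose and 5 fell in WT lines (limma adjusted p under 0.05), beside 2% and 1.76% of all genes, and 0 in Mre11A/A lines, where 1 was higher and 1 lower at an unadjusted p under 0.05, beside 2.59% and 1.85% of all genes. At an unadjusted p under 0.05 the difference was lower for 5 and higher for 7 of the 28, beside 4.21% and 4.22% of all genes. Rag1, which with Rag2 forms the recombinase, went from 1579 to 688, 1190 to 385 and 299 to 181 in WT and from 136 to 113, 395 to 388 and 413 to 327 in Mre11A/A lines. All 6 lines were lower after radiation, WT lines by more, but 2 of 3 WT lines started far above the Mre11A/A lines. The changes were -1.15 ± 0.18 and -0.20 ± 0.18, and the difference 0.95 ± 0.25 (limma adjusted p = 0.214). Rag2 changed by -0.85 in WT and -0.18 in Mre11A/A lines. Dntt, the enzyme that adds bases at V(D)J joints, changed by -0.30 and 0.04, with signals of 1416 to 3094 in WT lines and 76.2 to 1002 in Mre11A/A lines. Untreated levels of Dntt and Ltb, and of Rag1 against 2 of 3 WT lines, were lower in Mre11A/A lines, and their part in the differences was not tested.

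Spib went from 914 to 3411, 428 to 1964 and 2559 to 3692 in WT lines and from 1412 to 1845, 1757 to 2549 and 3366 to 4418 in Mre11A/A lines. WT line 4 changed least of the WT lines, from the highest untreated level, and overlapped with the Mre11A/A lines. The difference was -1.09 ± 0.27 (limma adjusted p = 0.198), and -1.58 without WT line 4 (adjusted p = 0.000944). Cd72, a co-receptor of B cells, changed by 0.44 in WT and 0.02 in Mre11A/A lines, and Irf8, a transcription factor of B-cell development, by 0.30 and -0.14.

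On the list of homing and adhesion genes, 17 of 20 were measured, with medians of 0.042 in WT and -0.0017 in Mre11A/A lines. The difference was lower for 4 and higher for 0 of the 17 at an unadjusted p under 0.05, beside 4.21% and 4.22% of all genes. Cd69, an early activation marker that holds lymphocytes in tissue, went from 1347 to 6424, 1254 to 8440 and 2144 to 7572 in WT and from 1887 to 2185, 1094 to 2693 and 1120 to 1923 in Mre11A/A lines. The lowest irradiated WT array, at 6424, stood above the highest irradiated Mre11A/A array, at 2693. The Mre11A/A change of 0.76 ± 0.27 was 33.4% of the WT change of 2.26 ± 0.27, and the difference was -1.51 ± 0.38 (limma adjusted p = 0.198). Swap70, which shapes the actin skeleton of migrating B cells, went from 1145 to 2636, 1077 to 3740 and 1247 to 2540 in WT and from 1386 to 1325, 1313 to 1386 and 919.5 to 1267 in Mre11A/A lines. The WT rises did not overlap with the Mre11A/A changes, which averaged 0.16, and the difference was -1.17 ± 0.30 (limma adjusted p = 0.198). Klf2, which controls lymphocyte traffic, changed by 0.48 and -0.38 with overlapping lines.

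The median of the immediate-early list was 0.17 for WT and -0.06 for Mre11A/A lines over 19 measured of 20. In WT lines 4 rose and 1 fell (limma adjusted p under 0.05), beside 2% and 1.76% of all genes, in Mre11A/A lines 0 passed, and the difference was lower for 5 and higher for 1 at an unadjusted p under 0.05. The shares of all genes were 4.21% and 4.22%, so the 1 higher member of 19 is near them. Atf3, a stress-induced transcription factor, changed by 0.62 in WT and 0.09 in Mre11A/A lines, and Maff, a small Maf factor, by 1.91 and 0.39 at low signals. Ier5 changed by 0.87 and 0.49. Myc, the growth-promoting transcription factor, went from 5714 to 3496, 3950 to 2210 and 5883 to 3992 in WT and from 5732 to 4372, 6334 to 5172 and 3246 to 2468 in Mre11A/A lines. Every line was lower after radiation, WT lines by more, and the difference was 0.34 ± 0.16 (limma adjusted p = 0.587).

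Several cell-cycle genes that fell in WT lines had smaller mean falls, or none, in Mre11A/A lines. Of 33 measured G2/M and mitosis genes (of 34), 8 fell and 1 rose in WT lines (limma adjusted p under 0.05), beside 1.76% and 2% of all genes, and 0 passed in Mre11A/A lines. The difference was higher for 6 and lower for 0 of the 33 at an unadjusted p under 0.05, beside 4.22% and 4.21% of all genes. Aspm, a spindle-pole protein, went from 2279 to 1833, 2511 to 1969 and 2204 to 1698 in WT and from 2399 to 2522, 2464 to 2442 and 2723 to 2903 in Mre11A/A lines. The line changes were -0.37 to -0.31 in WT and -0.01 to 0.09 in Mre11A/A, with no overlap. The difference was 0.39 ± 0.09 (limma adjusted p = 0.194). Dlgap5, Kif2c and Cenpf, which act on the spindle and kinetochore, had differences of 0.58, 0.44 and 0.34, but 1 of the 1, 2 of the 3 and 1 of the 2 other probe sets of these genes had the opposite sign. Plk1, the mitotic kinase, changed by -0.24 and -0.07 with overlapping lines. Gtse1, a G2 gene that binds p53, was the riser of the list, with 1.03 in WT and 0.66 in Mre11A/A lines.

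Of 33 measured G1/S and replication genes (of 34), 1 rose and 5 fell in WT lines (limma adjusted p under 0.05), beside 2% and 1.76% of all genes. In Mre11A/A lines 0 passed, and 5 had an unadjusted p under 0.05 for a fall, against 1.85% of all genes. The difference was higher for 5 and lower for 1 at an unadjusted p under 0.05, beside 4.22% and 4.21% of all genes, so the 1 lower member of 33 is near that share. Dtl, the substrate adaptor that marks Cdt1 and p21 for destruction, had the smallest p of the genes that were not called. Its signals went from 2239 to 1525, 1884 to 978 and 1784 to 967 in WT lines and from 1723 to 1825, 2069 to 2338 and 1875 to 1614 in Mre11A/A lines. All WT lines were lower after radiation, whereas 2 Mre11A/A lines were slightly higher and 1 lower. The difference was 0.80 ± 0.15, with an interval of 0.50 to 1.10 (limma adjusted p = 0.0758), and the other 5 probe sets had 0.21 to 0.71. It passed without WT line 1 (0.0427) and without Mre11A/A line 3 (0.0442). The mean change of Dtl was also small in Atm-/- (-0.18), Scid (-0.12), 53bp1-/- (-0.21) and H2ax-/- (-0.09) lines and larger in Mdc1-/- lines (-0.56).

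Cdc6, which loads the replicative helicase, had line changes of -0.54 to -0.49 in WT and of -0.27 to -0.09 in Mre11A/A. The difference was 0.31 ± 0.12 (limma adjusted p = 0.438). E2f2 and Ccne2, a transcription factor and a cyclin of entry into S phase, changed by -0.41 and -0.33 in WT lines and by -0.01 and 0.01 in Mre11A/A lines. Mcm4, a helicase subunit, changed by -0.32 and 0.23. Ccnd2, a D-type cyclin, moved the other way, 0.43 in WT and -0.13 in Mre11A/A lines, and all 6 of its other probe sets had the same sign of difference.

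Genes of apoptosis and of break repair had medians near 0 in both genotypes. On the apoptosis list (18 of 20 measured) medians were 0.01 and 0.03. In WT lines 1 rise and 1 fall were called by limma, beside 2% and 1.76% of all genes. Bcl2l11, the BH3-only killer protein Bim, went from 8711 to 13850, 7767 to 14600 and 8561 to 10160 in WT and from 3097 to 5926, 3342 to 4804 and 4274 to 6284 in Mre11A/A lines. The changes were 0.61 and 0.67, with an interval of the difference of -0.43 to 0.55; the Mre11A/A lines had the lower untreated levels, and all 4 other probe sets had the opposite sign of difference. Casp9, the initiator caspase, changed by -0.81 and -0.15. On the list of break sensing and repair (22 of 26 measured) medians were -0.08 and -0.03, with 1 fall called in WT lines, beside 1.76% of all genes. Counts of 1 are too small to be read as a result about either list. Lig4, the ligase of end joining, changed by -0.67 in WT and 0.07 in Mre11A/A lines, and Brca2, of homologous recombination, by 0.11 and -0.20. Chek2, the checkpoint kinase that acts below Atm, changed by 0.30 and 0.27. Mre11a itself had mean changes of -0.10 and -0.04.

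Beyond the lists, the smallest p-values for the difference, none of them past the adjustment, held 4 genes with smaller mean falls: Ripor2 (-0.59 in WT and -0.02 in Mre11A/A lines), Eef2k (-0.55 and -0.01), Elk3 (-0.61 and -0.04) and St8sia4 (-0.53 and -0.07). Gimap6, a lymphocyte GTPase, was at 1659 to 2340 in untreated and 3266 to 3828 in irradiated WT lines and stayed between 1856 and 2092 on all Mre11A/A arrays. Its difference was -0.79 ± 0.16 (limma adjusted p = 0.129). D17H6S56E-5 changed by 1.08 and 0.21. For Syt6, Mrpl33 and Prkch the means went opposite ways: 1.33 against -1.56 for Syt6, at signals up to 106, -0.54 against 0.50 for Mrpl33, and -0.50 against 0.62 for Prkch, whose untreated signal was 351 to 968 in WT and 52.1 to 139 in Mre11A/A lines.

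Set beside the other genotypes, whose responses share no arrays, the mean of the Mre11A/A lines lay between those of WT and Atm-/- lines in both lists. For p53, WT line 4 (0.38) lay below all 3 Mre11A/A lines. The mean over lines of the p53 list median was 0.77 ± 0.34 (SD, n = 3) in WT, 0.49 ± 0.12 in Mre11A/A and 0.11 ± 0.11 in Atm-/- lines. For the NF-kB list it was 0.86 ± 0.16 in WT, 0.19 ± 0.09 in Mre11A/A and -0.02 ± 0.05 in Atm-/- lines. The line values did not overlap between Mre11A/A and Atm-/- in either list, and the difference between those genotypes was not tested. Scid lines overlapped with the Mre11A/A lines in both lists through line 2, with 0.43 for p53 and 0.17 for NF-kB. The H2ax-/- means also lay between those of WT and Atm-/- in both lists, at 0.64 ± 0.47 for p53 and 0.66 ± 0.18 for NF-kB, with line 2 at 0.10 for p53, so such a place is not particular to Mre11A/A. The p53 means of 53bp1-/- (0.92) and Mdc1-/- lines (1.06) were above that of WT. Over the lines of these 3 genotypes the NF-kB medians were 0.38 to 0.89. All comparisons with WT use the same WT arrays: the difference from WT was called by limma for 126 genes that were higher and 130 that were lower in Atm-/- lines, 1 in Scid lines, 1 in Mre11A/A lines and 0 in the other 3 genotypes, with 1905, 660, 1042, 651, 561 and 637 genes at an unadjusted p under 0.05 in Atm-/-, Scid, Mre11A/A, 53bp1-/-, H2ax-/- and Mdc1-/- lines.

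**Figure D4:**
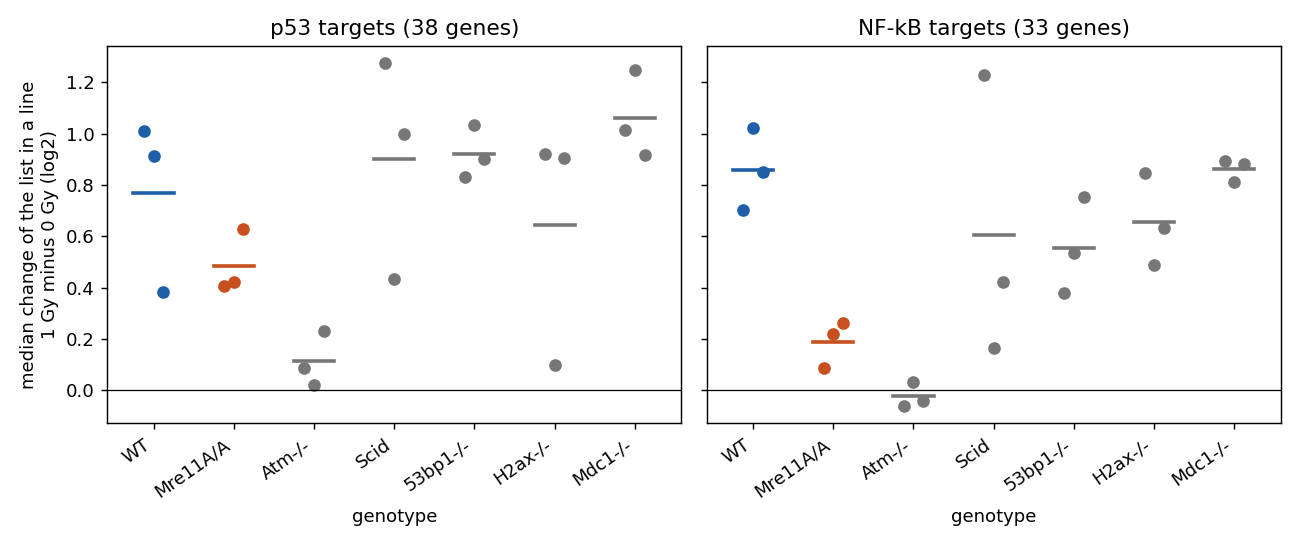
Each point is the median change after 1 Gy (log2) of 1 cell line over the p53 targets (left, 38 genes) or the NF-kB targets (right, 33 genes), and bars are means of 3 lines per genotype. Mre11A/A points lie between 0.41 and 0.63 for p53 and between 0.09 and 0.26 for NF-kB; the latter lie below all 3 WT points, which range from 0.70 to 1.02.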

How the data were processed

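RNA was labelled with biotin by the one-cycle protocol and hybridized to Affymetrix arrays, per the labels' protocols. The authors deposited linear intensities of probe sets; the submitters' processing notes name MAS5. Without the outer 2% at either end, the values of every array average 500. Groups and replicate numbers came from the labels, and all 42 arrays of the series entered the fit.

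Of 45101 probe sets, 64 were controls; 34945 had 1 gene symbol in the platform annotation, 932 several and 9160 none. Probe sets that exceeded their array's median on 3 or more arrays were kept (28260, of which 23245 had 1 symbol), and the one with the highest mean stood for its gene, which gave 12363 genes. The number of arrays limits the precision. A pseudocount of 16 before log2 understates the change of genes with low signals.

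Both arrays of a number were taken as 1 line: deviations from group means correlated at 0.354 to 0.581 in same-numbered pairs of WT and Mre11A/A arrays and at most at -0.0526 between different numbers. Deviations within a group sum to 0, so positive same-number values bring negative ones between numbers. Only the same-number values bear on the pairing. The labels do not state this pairing. Mean line changes of 7 genotypes over 21 lines were fitted with limma 3.58.1 in R 4.3.3 (14 residual degrees of freedom, variance trend with intensity), and p-values were two-sided with Benjamini-Hochberg adjustment over all genes. A response was called weakened when the difference passed an adjusted p of 0.05 against the WT direction, and detected in Mre11A/A lines when their own change passed in the WT direction. The fit was tested on simulated data.

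The lines, the 9 functional gene lists, 5 marker lists and the rule for named genes were chosen with earlier results of these data known. Named genes were picked from those called, the 12 smallest p-values for the difference, up to 6 members per list by p and 4 by size of the Mre11A/A change, the 15 largest risers and 10 largest fallers of the 4 other genotypes, and Mre11a. Not every gene that fits this rule is described. Among those left out are Nr4a1 and Casp6, with the smallest p of the immediate-early and apoptosis lists. Plots used Python 3.11.15, matplotlib 3.10.9, pandas 2.3.3 and numpy 2.4.6, and files were read in R with data.table (version 1.17.8). The alternatives changed the pseudocount, the normalization, the filter, the choice of probe sets, the pairing of arrays, the lines in the fit or the variance trend.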

Additional observations from a re-analysis of the deposited data

Results flagged for a closer look

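The response of Mob3a differed between the genotypes by the test of the difference itself: Mre11A/A minus WT was -1.10 on the log2 scale (limma adjusted p = 0.0403), and the change was smaller in all 3 Mre11A/A lines than in all 3 WT lines. With 1 call among 12363 genes at this threshold, and a call lost when any of 5 of the 6 lines was left out and under 6 of 9 other ways of processing all lines (adjusted p 0.0511 to 1), it rests on the exact set of lines and on the processing. Groups of 3 lines were too small for a test of single outlying lines.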

How the results depend on the processing

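Without the replicate block, as 14 group means over unpaired arrays, 0 genes were called for the difference (260 at an unadjusted p under 0.05), 0 for Mre11A/A (137) and 12 for WT lines; 10 of 33 NF-kB targets were then lower in Mre11A/A at an unadjusted p under 0.05, beside 1.53% of all genes. The count for the difference was also 0 with a pseudocount of 1 (1031 at an unadjusted p under 0.05), with quantile normalization (1056), over all kept probe sets (1906) and with no intensity trend (1022). With no trend 0 genes were called for Mre11A/A lines (514) and 263 for WT. Over all kept probe sets 11 were called for Mre11A/A, and in a fit of WT and Mre11A/A lines only 21 genes; the 1 gene called for the difference there was Prkcd, not Mob3a (adjusted p = 0.0545). Leaving out 1 line gave 0 to 3 calls for the difference, 0 to 16 for Mre11A/A and 114 to 412 for WT lines. The NF-kB median difference then ran from -0.779 to -0.479, and 3 list medians had no settled sign: break sensing and repair (-0.0465 to 0.091), G1/S and replication (-0.0401 to 0.0511) and B-lineage and V(D)J recombination (-0.0649 to 0.0185). The sign of the difference held for 58 of 67 named genes under all 15 alternatives. The others were Ccng1 (0.0184 with quantile normalization, -0.324 to 0.181 with 1 line left out), Plk2 (5e-04 and -1.19 to 0.635), Bcl2l11 (-0.119 to 0.212), Chek2 (-0.046 to 0.0047), Inka2 (-0.683 to 0.0335), Kifc5b (-0.297 to 0.0562), Map3k8 (-0.489 to 0.0853), Mre11a (-0.0656 to 0.164) and Sesn2 (-0.741 to 0.0453). The cause of these changes was not tested, apart from the fewer lines or the larger number of tests that some alternatives hold.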

Other observations

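Xist, the RNA of the inactive X chromosome, was the 4th gene called as a rise in Mre11A/A lines (1.41 ± 0.26, limma adjusted p = 0.0409). The call comes from low signals in the high-Eif2s3y lines: 30.5 to 119 in line 2 and 4.84 to 122 in line 3, against 11960 to 11640 in line 1. The call was lost with a pseudocount of 1 (adjusted p = 0.0714) or 64 (0.0615), with WT and Mre11A/A lines only (0.219), with no intensity trend (0.407) and with unpaired arrays (1). It was also lost without WT line 3 (0.0634) or Mre11A/A line 2 (0.583) or 3 (0.535), and leaving out 1 Mre11A/A line gave changes of 0.75 to 2.13. Of the other Xist probe sets, one went down in lines 2 and 3 (15.7 to 2.52 and 19.4 to 1.74) and one up (90.04 to 247 and 79.6 to 186). All WT arrays had at least 13380 on the first probe set.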
